A study of Mus musculus with 12 samples.

Results

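The genes described here make ribosomes in the nucleolus: 45 listed mouse genes of RNA polymerase I transcription, ribosomal RNA modification and ribosomal subunit assembly, listed by symbol and role, with earlier results of these data known. Of the 45 symbols, 44 were found among the 23309 genes of the deposited RNA-seq table, and Noc2l was not analysed here. The libraries came from mouse bone marrow progenitors that all carried a retroviral ER-HoxB8 fusion, an estrogen receptor joined to HoxB8. HoxB8 blocks myeloid maturation, and in the fusion it is active only with estradiol (E2) in the medium, so taking E2 away, with interleukin 3 supplied, starts differentiation. Wild-type (WT) cells came from wild-type mice and HMGN1-OE cells from mice transgenic for human HMGN1, a protein that binds nucleosomes. The sequences that drive the transgene and the number of progenitor lines per genotype are not given in the labels. Each genotype was sampled at 0 h, in E2, and at 36 h and 96 h after withdrawal, with 2 libraries for each of the 6 groups, 12 in all. The study calls the 2 libraries of a group biological duplicates, and whether they came from separate mice or separate cultures of 1 line is not given in the sources used here, so p-values measure the spread between these libraries. The 2 libraries of a group are called the first and the second in the order of their columns, which is a name only.

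Ribosome production begins when RNA polymerase I transcribes the ribosomal RNA precursor in the nucleolus. Small nucleolar ribonucleoproteins (snoRNPs) then modify and help to fold the precursor, and large sets of assembly factors cleave it and pack it with ribosomal proteins into the small and the large subunit. The process takes much of the transcription of a growing cell, many of its genes are known targets of the transcription factor MYC, and it declines as myeloid progenitors leave the cell cycle and mature. The 44 genes were grouped by role into RNA polymerase I machinery (8 genes), box C/D snoRNP proteins (4), box H/ACA snoRNP proteins (4), nucleolar chaperones (4), the small subunit processome (13) and large subunit assembly factors (11).

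Levels are given in FPKM, fragments per kilobase of transcript and per unit of library size. The authors then normalized them to spiked-in ERCC RNAs added per counted number of cells, so a value as deposited is meant to stand for RNA per cell. As deposited, whole libraries of 1 group were shifted against each other. The first minus the second library had a median over the tested genes of -0.85, -0.26 and 0.89 (log2) in wild-type cells at 0, 36 and 96 h. In HMGN1-OE cells it was 0.51, 0.09 and -0.28. On that scale the change from 0 to 96 h had a median of -1.75 (log2) over the 11516 tested genes in wild-type cells and -1.28 in HMGN1-OE cells, and the libraries' own medians moved by -1.85 and -1.31. Each change is therefore also given after every library was centred on its own median, which is called relative to the library median. The files hold no read counts, so the depth behind a value is unknown. As a check of the labels, the 8 progenitor markers held 0.778 to 1.80% of the summed FPKM of the libraries at 0 and 36 h and 0.0542 to 0.418% at 96 h, while the 12 neutrophil maturation markers found held 0.0297 to 0.455% and then 22.9 to 32.3%. Of the summed FPKM of a library, the B cell markers held at most 0.00512%, the T or NK cell markers 0.000598%, the erythroid or megakaryocyte markers 0.00730% and the monocyte or macrophage markers 0.0409%. Ms4a1, Cd3e, Cd8a and Ncr1 were under 1 FPKM in every library, while Ebf1 reached 44.8 FPKM, Cd79b 27.8 and Lck 5.47. The 8 eosinophil, basophil or mast cell markers held 0.0539 to 0.569%, most at 96 h in wild-type cells. The neutrophil gene S100a9 was listed at 0.0511 FPKM in the first wild-type library at 96 h and at 26546 to 73461 FPKM in the other 3 libraries of that time, so shares of summed FPKM in that library rest on a total without it. In these bulk libraries, fewer cells of a type and less RNA per cell cannot be told apart. Mouse Hmgn1 read 85.7 and 141 FPKM in wild-type and 201 and 97.6 in HMGN1-OE libraries at 0 h, 141 and 183 against 134 and 188 at 36 h and 11.1 and 4.71 against 10.1 and 20.7 at 96 h. As deposited the genotypes overlapped at each time. After centring on the library median its log2 level was 2.52 and 2.36 in wild-type against 3.18 and 2.67 in HMGN1-OE libraries at 0 h, 2.47 and 2.56 against 2.78 and 3.37 at 36 h and 0.61 and 0.49 against 0.72 and 1.39 at 96 h. On that scale the genotypes did not overlap at any time, with differences of 0.48 ± 0.26, 0.56 ± 0.26 and 0.50 ± 0.26 at 0, 36 and 96 h, and none was called (limma, smallest adjusted p = 0.343). Since the transgene is the human gene, this row does not check the genotype labels.

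All 44 genes fell between 0 and 96 h in both genotypes. The ratio of the mean FPKM at 0 h to that at 96 h was between 5.24, for Utp3, and 30.5, for Npm1, in wild-type cells, with a median of 15.9. In HMGN1-OE cells it was between 3.28 and 13.4 for the same genes, with a median of 7.83. Together the 44 genes held 0.853 to 0.948% of the summed FPKM of each library at 0 and 36 h, and 0.0960 to 0.204% at 96 h, with no overlap. As deposited, the median change of the 44 genes was -3.70 (log2) in wild-type cells, from -5.10 to -2.38, and -2.89 in HMGN1-OE cells, from -3.83 to -1.64. Every one of the 44 passed the test as lower (limma, Benjamini-Hochberg adjusted p under 0.05 over all tested genes) in each genotype, where 77.2% of all tested genes were called lower in wild-type cells and 62.4% in HMGN1-OE cells.

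Relative to the library median the 44 genes also fell. The median change was -1.85 (log2) in wild-type cells, from -3.25 for Npm1 to -0.54 for Utp3, and -1.58 in HMGN1-OE cells, from -2.52 to -0.33, against 0.09 and 0.03 over all tested genes. All 44 were called lower in each genotype, against a background of 33.8% of tested genes in wild-type cells and 32.5% in HMGN1-OE cells. Ordered by this change from the lowest, 26 of the 44 genes lay within the lowest 5% of the 11516 genes in wild-type cells, 35 within the lowest 10% and 43 within the lowest 25%. In HMGN1-OE cells the counts were 21, 30 and 43. Utp3 was the gene outside the lowest 25% in both genotypes, and its call in HMGN1-OE cells was lost when any of the 4 HMGN1-OE libraries compared was left out (adjusted p between 0.0574 and 0.145).

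**Figure D1:**
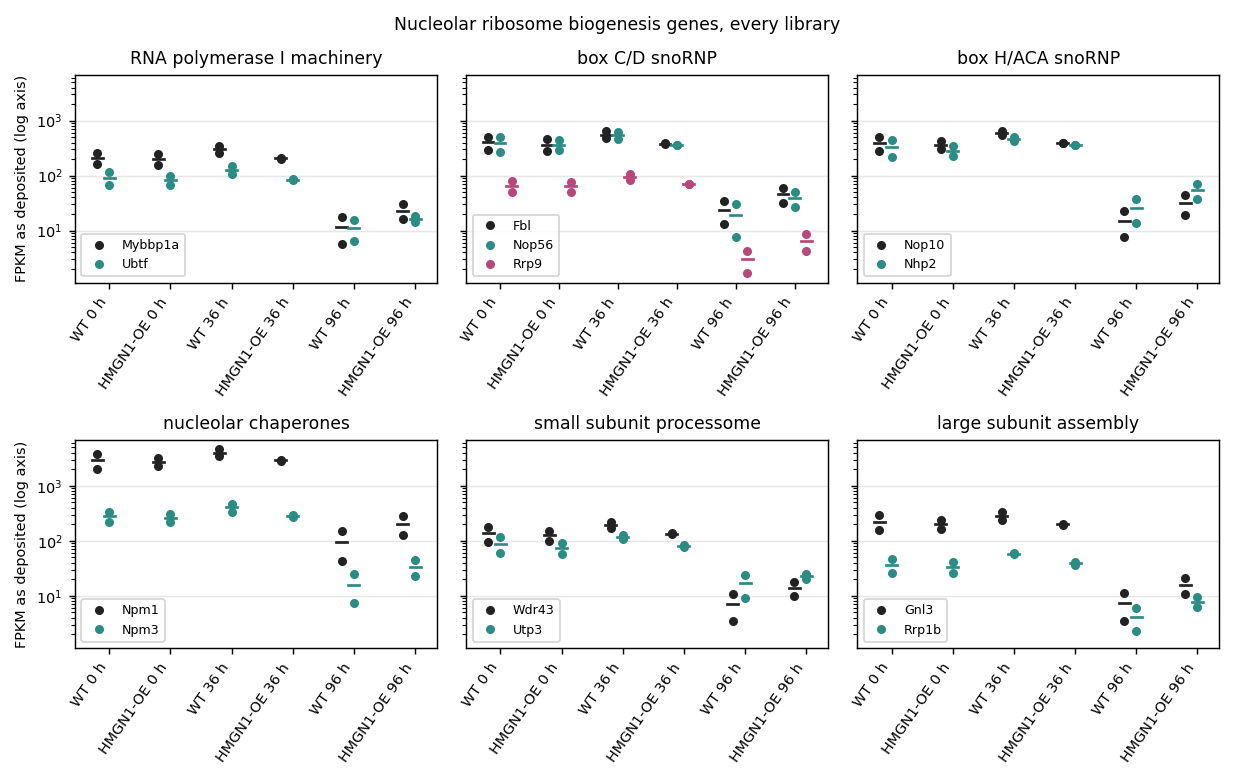
FPKM as deposited, on a log axis, of the genes named in each role group, in the 12 libraries; points are single libraries and short lines are the means of the 2 libraries of a group. For every gene shown the 4 libraries at 96 h lie below the 8 libraries at 0 and 36 h, and Npm1 has the highest level, from 2039 to 4636 FPKM before 96 h.

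RNA polymerase I is the enzyme that makes the ribosomal RNA precursor. Its 8 genes here encode the subunits Polr1a, Polr1b, Polr1c (which RNA polymerase III shares) and Polr1e, the initiation factor Rrn3, the promoter factors Ubtf and Taf1d, and Mybbp1a, a nucleolar MYB-binding protein. Mybbp1a had the highest mean level of the group and its largest relative fall in wild-type cells. In wild-type cells Mybbp1a read 160.0 and 253 FPKM at 0 h, 253 and 352 at 36 h and 17.8 and 5.67 at 96 h. The HMGN1-OE libraries had 247 and 155 FPKM at 0 h, 211 and 199.7 at 36 h and 16.4 and 29.9 at 96 h. The 96 h libraries of each genotype lay below all its earlier ones, and the relative change from 0 to 96 h was -2.33 ± 0.21 in wild-type cells (adjusted p = 1.73e-05) and -1.77 ± 0.21 in HMGN1-OE cells (adjusted p = 0.000109). Ubtf, which binds along ribosomal DNA, had the smallest fall in wild-type cells. In wild-type cells Ubtf read 66.8 and 116 FPKM at 0 h, 109 and 147 at 36 h and 15.4 and 6.41 at 96 h. Its HMGN1-OE values were 98.7 and 67.2 FPKM at 0 h, 86.0 and 82.7 at 36 h and 14.2 and 18.8 at 96 h. Relative to the library median, Ubtf changed by -1.17 ± 0.09 in wild-type cells (adjusted p = 1.01e-05) and -0.94 ± 0.09 in HMGN1-OE cells (adjusted p = 4.75e-05). Of the enzyme's subunits, the second largest, Polr1b, changed by -2.17 in wild-type cells, Polr1c by -1.74, the largest, Polr1a, by -1.21 and Polr1e by -1.20. The group's median relative change was -1.54 in wild-type cells and -1.25 in HMGN1-OE cells.

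Box C/D snoRNPs place methyl groups on the ribose of ribosomal RNA at sites that their guide RNAs choose. Fbl (fibrillarin) is the methyltransferase, Nop56 and Nop58 form the core around it, and Rrp9 belongs to the U3 particle, which is needed to cleave the precursor. Fbl had the highest mean level of the 4. In wild-type cells Fbl read 295 and 508 FPKM at 0 h, 479 and 637 at 36 h and 33.9 and 13.2 at 96 h. In HMGN1-OE cells it read 458 and 275 FPKM at 0 h, 377 and 389 at 36 h and 32.3 and 60.3 at 96 h. Its relative change from 0 to 96 h was -2.28 ± 0.19 in wild-type cells (adjusted p = 1.32e-05) and -1.67 ± 0.19 in HMGN1-OE cells (adjusted p = 0.000101). Nop56 fell most in wild-type cells. In wild-type cells Nop56 read 272 and 500.3 FPKM at 0 h, 466 and 609 at 36 h and 30.4 and 7.76 at 96 h. The HMGN1-OE libraries had 441 and 290.0 FPKM at 0 h, 361 and 359 at 36 h and 27.0 and 49.96 at 96 h. Its relative change was -2.63 ± 0.26 in wild-type cells (adjusted p = 3.14e-05) and -1.94 ± 0.26 in HMGN1-OE cells (adjusted p = 0.000245). Rrp9 was the least abundant of the 4 and fell least in wild-type cells, though by nearly as much as Fbl. In wild-type cells Rrp9 read 49.8 and 81.4 FPKM at 0 h, 83.9 and 107 at 36 h and 4.32 and 1.68 at 96 h. Its HMGN1-OE values were 77.2 and 51.2 FPKM at 0 h, 69.8 and 69.2 at 36 h and 4.21 and 8.72 at 96 h. Relative to the library median, Rrp9 changed by -2.25 ± 0.16 in wild-type cells (adjusted p = 7.34e-06) and -1.85 ± 0.16 in HMGN1-OE cells (adjusted p = 2.8e-05). The 4 wild-type changes lay within -2.63 to -2.25, with a median of -2.36, against -1.76 in HMGN1-OE cells.

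Box H/ACA snoRNPs turn uridine into pseudouridine, and the same proteins also bind telomerase RNA. Dkc1 (dyskerin) is the pseudouridine synthase, and Gar1, Nhp2 and Nop10 are its partners. Nop10 had the highest mean level and the largest relative fall of the 4. In wild-type cells Nop10 read 284 and 514 FPKM at 0 h, 559 and 654 at 36 h and 22.3 and 7.74 at 96 h. In HMGN1-OE cells it read 421 and 308 FPKM at 0 h, 394 and 394 at 36 h and 19.6 and 43.9 at 96 h. Its relative change was -2.90 ± 0.24 in wild-type cells (adjusted p = 1.19e-05) and -2.26 ± 0.24 in HMGN1-OE cells (adjusted p = 6.32e-05). Nhp2 had the smallest fall. In wild-type cells Nhp2 read 214 and 439.8 FPKM at 0 h, 431 and 503 at 36 h and 37.0 and 13.7 at 96 h. The HMGN1-OE libraries had 342 and 226 FPKM at 0 h, 364 and 356 at 36 h and 38.1 and 70.9 at 96 h. Relative to the library median, Nhp2 changed by -1.86 ± 0.19 in wild-type cells (adjusted p = 3.67e-05) and -1.08 ± 0.19 in HMGN1-OE cells (adjusted p = 0.00108). Dkc1 changed by -2.82 and -2.02 and Gar1 by -2.44 and -1.61 in wild-type and HMGN1-OE cells. The 4 genes had the lowest median relative change of the 6 groups in wild-type cells, -2.63, with -1.82 in HMGN1-OE cells; the difference from the other groups was not tested.

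The nucleolar chaperones bind histones, ribosomal proteins and precursor RNA. Npm1 (nucleophosmin) and Ncl (nucleolin) are among the most abundant nucleolar proteins, Npm3 is a relative of Npm1, and Nolc1 escorts snoRNPs. Npm1 had the highest mean level and the largest relative fall of all 44 genes. In wild-type cells Npm1 read 2039 and 3864 FPKM at 0 h, 3468 and 4636 at 36 h and 150.0 and 43.4 at 96 h. Its HMGN1-OE values were 3227 and 2308 FPKM at 0 h, 2828 and 2989.6 at 36 h and 126 and 288 at 96 h. The highest 96 h library, the second of HMGN1-OE, was still well below the lowest earlier one. The relative change was -3.25 ± 0.32 in wild-type cells (adjusted p = 2.67e-05) and -2.52 ± 0.32 in HMGN1-OE cells (adjusted p = 0.000157). Npm3 fell least of the 4 in wild-type cells, and its row may share reads with 1 pseudogene named after it. In wild-type cells Npm3 read 222 and 341 FPKM at 0 h, 336 and 475 at 36 h and 24.7 and 7.35 at 96 h. In HMGN1-OE cells it read 303 and 218 FPKM at 0 h, 273 and 302 at 36 h and 22.6 and 45.5 at 96 h. Its relative change was -2.39 ± 0.26 in wild-type cells (adjusted p = 4.68e-05) and -1.65 ± 0.26 in HMGN1-OE cells (adjusted p = 0.00053). Ncl changed by -2.48 and -1.93 and Nolc1 by -2.68 and -1.99. The group medians were -2.58 in wild-type cells and -1.96 in HMGN1-OE cells.

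The small subunit processome assembles on the 5′ part of the precursor and releases the small subunit RNA. Wdr43, a WD-repeat component, had the highest mean level and the largest fall. In wild-type cells Wdr43 read 96.1 and 181 FPKM at 0 h, 169 and 219.9 at 36 h and 10.9 and 3.55 at 96 h. The HMGN1-OE libraries had 150.3 and 102 FPKM at 0 h, 138 and 132 at 36 h and 10.2 and 18.1 at 96 h. Relative to the library median, Wdr43 changed by -2.33 ± 0.17 in wild-type cells (adjusted p = 6.89e-06) and -1.78 ± 0.17 in HMGN1-OE cells (adjusted p = 3.62e-05). Utp3, also known as Sas10, had the smallest fall of all 44 genes. In wild-type cells Utp3 read 59.3 and 117 FPKM at 0 h, 109.5 and 127 at 36 h and 24.5 and 9.27 at 96 h. Its HMGN1-OE values were 89.9 and 58.0 FPKM at 0 h, 83.5 and 78.4 at 36 h and 19.9 and 25.2 at 96 h. At 96 h the first wild-type library and both HMGN1-OE libraries lay close together and the second wild-type library lay lower, and all 4 were below every earlier library. Its relative change was -0.54 ± 0.11 in wild-type cells (adjusted p = 0.00238) and -0.33 ± 0.11 in HMGN1-OE cells (adjusted p = 0.0291). After Wdr43, the largest wild-type changes were -2.20 for Wdr75 and -1.95 for Utp20, a very large scaffold protein. The smallest after Utp3 were -0.86 for Bysl and -1.20 for Utp6. The group medians were -1.50 in wild-type cells and -1.12 in HMGN1-OE cells.

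The large subunit assembly factors process the RNA of the large subunit and prepare it for export. Pes1, Bop1 and Wdr12 form the PeBoW complex, Nop2 and Ftsj3 are RNA methyltransferases, and Gnl3 (nucleostemin) is a nucleolar GTP-binding protein known from stem and progenitor cells. Gnl3 had the highest mean level and the largest fall of the 11. In wild-type cells Gnl3 read 158 and 292 FPKM at 0 h, 241 and 336 at 36 h and 11.3 and 3.48 at 96 h. In HMGN1-OE cells it read 239 and 166 FPKM at 0 h, 201 and 197 at 36 h and 10.6 and 20.9 at 96 h. Relative to the library median, Gnl3 changed by -3.01 ± 0.21 in wild-type cells (adjusted p = 5.95e-06) and -2.34 ± 0.21 in HMGN1-OE cells (adjusted p = 2.66e-05), the lowest of the 44 genes after Npm1 in both genotypes. Rrp1b had the smallest fall. In wild-type cells Rrp1b read 26.5 and 46.4 FPKM at 0 h, 56.6 and 59.1 at 36 h and 5.93 and 2.31 at 96 h. The HMGN1-OE libraries had 40.8 and 26.4 FPKM at 0 h, 42.0 and 36.1 at 36 h and 6.16 and 9.53 at 96 h. Its relative change was -1.07 ± 0.11 in wild-type cells (adjusted p = 4.14e-05) and -0.65 ± 0.11 in HMGN1-OE cells (adjusted p = 0.000963). The 3 PeBoW genes did not move by the same amount: in wild-type cells Wdr12 changed by -2.53 ± 0.17, Bop1 by -1.77 ± 0.17 and Pes1 by -1.50 ± 0.13, and in HMGN1-OE cells by -1.75, -1.34 and -1.18. These differences between genes were not tested. The group medians were -1.78 in wild-type cells and -1.56 in HMGN1-OE cells.

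**Figure D2:**
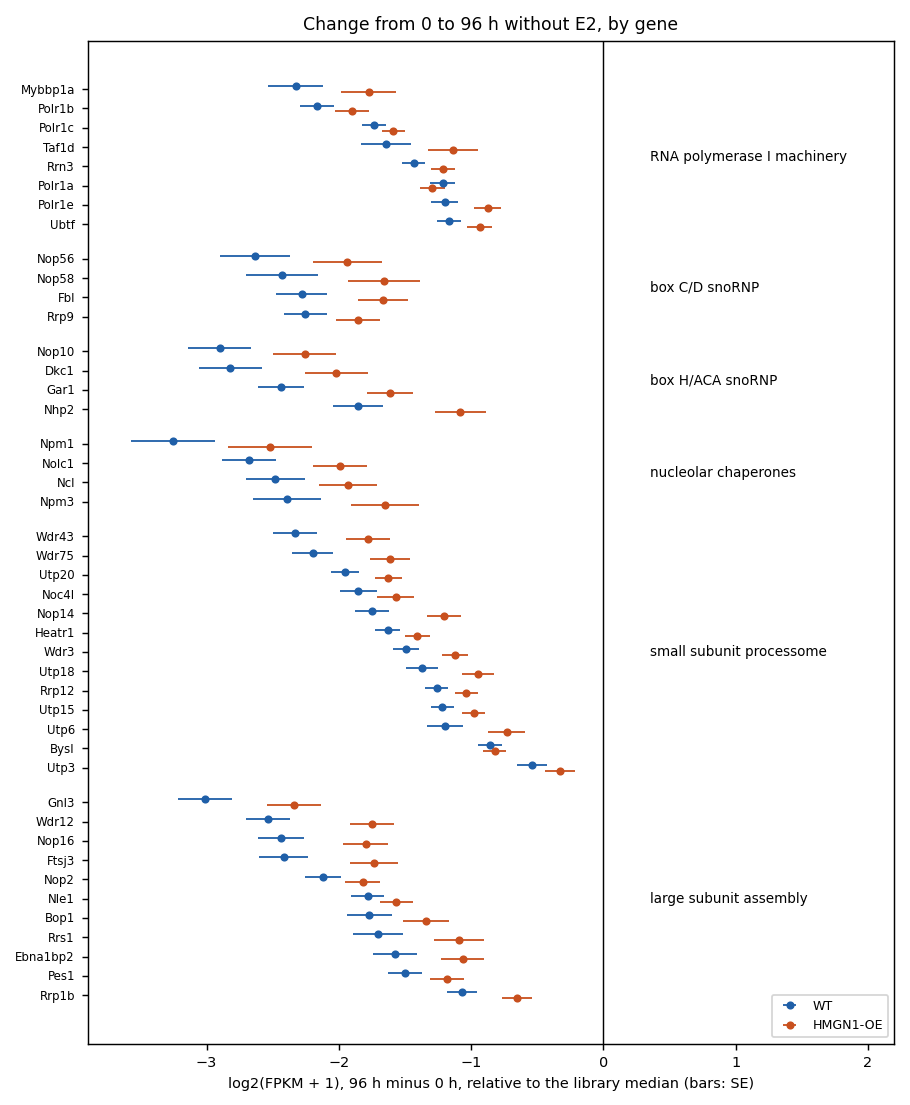
Change of each of the 44 genes from 0 to 96 h without E2, in log2(FPKM + 1) relative to the library median, with the standard error from limma as bars; blue is wild type and orange is HMGN1-OE, and genes are ordered within each role by the wild-type change. All points lie below 0, from -3.25 for Npm1 to -0.33 for Utp3, and for 43 genes the wild-type point lies further below 0 than the HMGN1-OE point.

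The fall came after 36 h. Between 0 and 36 h no gene of the 44 passed the limma test in either genotype on either scale, and at an unadjusted p under 0.05 there were 0 as deposited in both genotypes, 0 relative to the median in wild-type cells and 1 with HMGN1-OE. Of all tested genes, 3.28% with wild-type cells and 5.02% with HMGN1-OE passed that unadjusted threshold as deposited, and 3.06% and 14.8% relative to the median. The median changes were 0.52 as deposited and 0.04 relative to the median in wild-type cells, and 0.14 and 0.11 in HMGN1-OE cells. Over all tested genes the as-deposited medians were 0.47 and 0.06. Relative to the median, both HMGN1-OE libraries at 36 h lay above both at 0 h in 26 of the 44 genes and below in 2. Of all tested genes 33.4% and 24.0% did so. In wild-type cells the counts were 12 and 1, against 14.4% and 13.9%. As deposited they were 1 and 0 with HMGN1-OE (against 14.3% and 9.47%) and 8 and 0 in wild-type cells (against 25.7% and 0.356%). Few genes of any kind were called over this interval, 0.617% of those tested in wild-type cells as deposited, 1.8% with HMGN1-OE, and 0.00868% and 0.13% relative to the median. Between 36 and 96 h all 44 genes were called lower in both genotypes on both scales. As deposited the median was -4.31 in wild-type cells, where 86.3% of tested genes were called lower, and -3.00 in HMGN1-OE cells, where 64.9% were. Relative to the median it was -1.98 against a background of 33.7%, and -1.66 against 32.3%. This comparison and that from 0 h share the libraries at 96 h.

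Other genes of ribosome production, listed by role beside the 44, were counted on the same scale. Of 95 tested genes of other biogenesis factors, 89 were called lower and 1 higher in wild-type cells from 0 to 96 h relative to the median, and 86 lower and 0 higher in HMGN1-OE cells, with medians of -1.47 and -1.10. Of all tested genes 33.8% were called lower in wild-type cells and 32.5% in HMGN1-OE cells. The 31 other small subunit factors and the 36 other large subunit factors had wild-type medians of -1.41 and -1.59, and the 21 genes of the RNA exosome and RNase MRP one of -1.53. The 7 other RNA polymerase I genes had a wild-type median of -0.25, and 3 of the 7 were called lower, against 33.8% of all tested genes. The 79 cytosolic ribosomal protein genes, which encode the structural parts of the ribosome, had medians of -1.15 in wild-type cells and -0.75 in HMGN1-OE cells, with 77 and 68 called lower. The medians of the 44 genes, -1.85 and -1.58, were lower than each of these, and the differences between lists were not tested. Myc itself read 149.7 and 241 FPKM at 0 h, 238 and 301 at 36 h and 15.2 and 3.90 at 96 h in wild-type cells, and 226 and 122, 183 and 171 and 11.6 and 19.7 in HMGN1-OE cells. Its relative change from 0 to 96 h was -2.58 ± 0.24 in wild-type cells (adjusted p = 2.05e-05) and -2.06 ± 0.24 in HMGN1-OE cells (adjusted p = 0.000103).

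**Figure D3:**
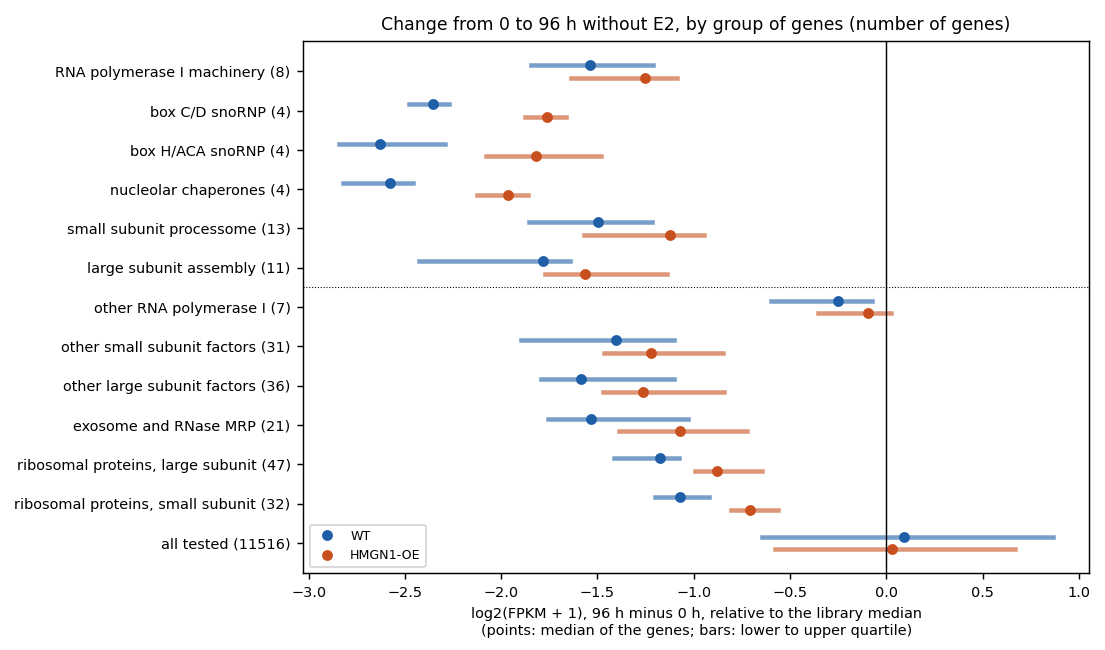
Change from 0 to 96 h in log2(FPKM + 1) relative to the library median, as the median (point) and the lower to upper quartile (bar) of the genes of each group, with their number; blue is wild type and orange is HMGN1-OE, and the 6 role groups of the 44 genes lie above the dotted line. Among the groups of ribosome genes the wild-type medians run from -2.63 for the box H/ACA genes to -0.25 for the 7 other RNA polymerase I genes.

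The level at 0 h and the relative change were set side by side as a description, since that level is itself subtracted in the change and the pseudocount shrinks the changes of low genes, so that a negative correlation is partly built in. Across the 44 genes the pair had a Pearson r of -0.71 and a Spearman rho of -0.71 in wild-type cells, and -0.62 and -0.59 in HMGN1-OE cells (n = 44 genes, which share the same libraries and are not independent replicates). With a pseudocount of 0.1 in place of 1, which compresses low values less, r was -0.52 and -0.48 and rho -0.50 and -0.40. Over all tested genes rho was -0.61 for wild type and -0.52 for HMGN1-OE with a pseudocount of 1, and -0.37 and -0.32 with 0.1. The order of the genes was alike in the 2 genotypes, with an r of 0.95 and a rho of 0.93 between the wild-type and the HMGN1-OE changes. Genes that carry snoRNA genes within them, in introns from which snoRNAs are typically released, were frequent among the 44: Taf1d, Nop56, Nop58, Dkc1, Ncl, Wdr43 and Gnl3 held 27 snoRNA genes in the GENCODE vM21 annotation. These 7 made up 15.9% of the 44, against 1.86% of the 10734 tested genes found in the annotation. Their median relative change was -2.48 in wild-type cells and -1.93 in HMGN1-OE cells, against -1.77 and -1.41 for the other 37 and -0.83 and -0.64 for all 200 tested genes that hold a snoRNA gene. In the same annotation 20 of the 44 genes overlap a gene on the opposite strand: Polr1a, Polr1e, Taf1d, Mybbp1a, Nop56, Rrp9, Dkc1, Nhp2, Npm3, Wdr3, Wdr43, Heatr1, Nop14, Bysl, Pes1, Bop1, Wdr12, Rrp1b, Nle1 and Gnl3. The library kit does not mark strand, so reads of the overlapping parts cannot be told apart.

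Promoter sequences were searched because the 44 genes moved together. RefSeq promoters of build GRCm38.p6, each 300 bases long with 250 bases before and 50 after the start of a transcript, were matched by symbol for 38 of the 44 genes, with 46 promoters. The letters CACGTG, the E-box form that MYC and related factors are known to bind, were in a promoter of 8 of the 38 genes (21.1%): Rrn3, Mybbp1a, Utp18, Utp20, Wdr43, Pes1, Nle1 and Nop2. Of the 8530 tested genes with a promoter, 12.2% held it. CCGGAAG, the core of sites for ETS family factors, was in 12 of 38 genes (31.6%, against 21.4%), GGGCGG, a GC box, in 29 (76.3%, against 68.7%), and AAGATGGCG, a site of YY1, in 1 (2.63%, against 3.92%). All were sought on both strands, and CACGTG reads the same on both. The median relative change of the 8 genes with CACGTG was -1.87 in wild-type cells, against -2.01 for the other 30, and -1.59 against -1.60 in HMGN1-OE cells. For the 12 with CCGGAAG it was -1.60 against -2.23 for those without it in wild-type cells and -1.17 against -1.65 in HMGN1-OE cells, for the 29 with GGGCGG -1.95 against -1.78 and -1.61 against -1.56. None of these differences was tested. The E-box lay before the start in 3 genes and after it in 5. The 250 bases before the start are printed for those 3, for Gnl3, which fell most among the assembly factors and holds none of the CACGTG and CCGGAAG letters, and for Utp3, which fell least of all. They are written 5′ to 3′ on the strand of the gene, and capitals mark CACGTG and CCGGAAG or its reverse complement where they lie wholly before the start.
Rrn3, chr16:13780449-13780698, plus strand: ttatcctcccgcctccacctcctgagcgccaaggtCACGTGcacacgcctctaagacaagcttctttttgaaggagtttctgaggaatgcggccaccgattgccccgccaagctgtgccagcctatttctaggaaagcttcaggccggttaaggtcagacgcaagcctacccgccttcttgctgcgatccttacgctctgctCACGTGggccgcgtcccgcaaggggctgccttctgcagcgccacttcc
Nop2, chr6:125131633-125131882, plus strand: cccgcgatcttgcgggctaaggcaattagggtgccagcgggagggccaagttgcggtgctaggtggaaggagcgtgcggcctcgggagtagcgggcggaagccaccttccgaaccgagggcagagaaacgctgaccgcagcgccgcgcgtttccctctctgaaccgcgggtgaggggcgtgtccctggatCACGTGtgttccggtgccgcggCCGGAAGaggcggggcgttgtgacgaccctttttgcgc
Utp18, chr11:93885767-93886016, minus strand: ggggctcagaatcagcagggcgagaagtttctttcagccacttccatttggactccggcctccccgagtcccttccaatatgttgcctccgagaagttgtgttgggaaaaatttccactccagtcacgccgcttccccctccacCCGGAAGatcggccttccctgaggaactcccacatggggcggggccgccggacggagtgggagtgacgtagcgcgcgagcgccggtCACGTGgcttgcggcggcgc
Gnl3, chr14:31019132-31019381, minus strand: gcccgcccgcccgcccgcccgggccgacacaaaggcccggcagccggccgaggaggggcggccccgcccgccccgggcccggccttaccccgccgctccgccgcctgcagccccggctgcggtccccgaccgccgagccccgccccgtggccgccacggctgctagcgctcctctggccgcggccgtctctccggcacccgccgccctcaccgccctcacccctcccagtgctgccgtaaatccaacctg
Utp3, chr5:88554212-88554461, plus strand: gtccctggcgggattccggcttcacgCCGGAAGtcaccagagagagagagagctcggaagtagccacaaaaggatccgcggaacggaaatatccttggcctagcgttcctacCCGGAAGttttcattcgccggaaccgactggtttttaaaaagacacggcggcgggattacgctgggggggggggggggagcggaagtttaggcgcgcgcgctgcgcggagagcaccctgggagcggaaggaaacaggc
Rrn3 holds CACGTG 215 and 48 bases before its start, counted from the first base of the motif, Nop2 60 bases and Utp18 20 bases before it. CCGGAAG begins 38 bases before the start in Nop2, 106 in Utp18, and 224 and 138 in Utp3. These matches are letters in a window and no evidence of binding.

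Whether HMGN1 overexpression altered these genes was tested at each time. At 0 and 36 h no gene of the 44 was called between the genotypes on either scale (limma, 0 at an unadjusted p under 0.05 in each case). That unadjusted threshold was passed by 3.97% of all tested genes at 0 h and 5.15% at 36 h as deposited, and by 5.64% and 3.85% relative to the median. The median difference of HMGN1-OE minus wild type at 0 h was -0.10 as deposited, against -0.12 over all tested genes, and 0.03 relative to the median. At 36 h it was -0.52 as deposited, against -0.54 over all tested genes, and 0.06 relative to the median. The as-deposited FPKM of all 44 genes at 36 h were lower in both HMGN1-OE libraries than in both wild-type libraries, as were those of 84.4% of all tested genes. After centring, 22 of the 44 lay wholly above at 36 h and 0 wholly below, where 26.0% of all tested genes lay wholly above. The shares of tested genes called at 0 and 36 h were 1.36% and 1.26% as deposited and 0.104% and 0.0521% relative to the median.

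At 96 h the mean FPKM of all 44 genes exceeded that of wild-type cells in HMGN1-OE cells, and no single gene passed the test. The ratio of mean FPKM, HMGN1-OE to wild type, was between 1.27 for Polr1a and 2.36 for Gar1, with a median of 1.91. As deposited the median difference was 0.92 (log2), against 0.36 over all tested genes, with all 44 above 0, none called (limma, 0.669% of tested genes called). At an unadjusted p under 0.05 there were 10 of the 44, against 2.73% of all tested genes. Relative to the median the difference was 0.52, against -0.05 over all tested genes, with 43 of 44 above 0, none called (0.0608% of tested genes called). At an unadjusted p under 0.05 there were 37 of the 44, against 17.9% of all tested genes. The adjusted p of the 44 genes on this scale lay between 0.218 and 0.869. In 38 of the 44 genes the lower HMGN1-OE library exceeded the higher wild-type library relative to the median, which held for 21.7% of all tested genes. As deposited it was so in 5 of the 44 genes and in 10.2% of all tested genes. The largest differences were 0.85 ± 0.27 for Nop58, 0.82 ± 0.32 for Npm1 and 0.81 ± 0.24 for Dkc1, the smallest -0.03 ± 0.10 for Polr1a, 0.12 ± 0.10 for Heatr1 and 0.12 ± 0.09 for Bysl. An exact permutation test of any single gene, 2 libraries against 2, cannot go below p = 0.333.

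By role, the relative difference at 96 h had medians of 0.29 for RNA polymerase I machinery, 0.70 for box C/D and 0.76 for box H/ACA snoRNP proteins, 0.77 for the chaperones, 0.37 for the small subunit processome and 0.52 for large subunit assembly. The 79 ribosomal protein genes had a median of 0.47 and the 95 other biogenesis genes one of 0.33. The difference in the change from 0 to 96 h between the genotypes, tested as an interaction, had a median of 0.49 relative to the library median, with 43 of 44 genes above 0, none called (0.0347% of tested genes called) and 16 at an unadjusted p under 0.05 (against 10.6% of all tested genes). As deposited its median was 1.02, with all 44 above 0, none called (0.677% of tested genes called) and 0 at an unadjusted p under 0.05 (against 2.9% of all tested genes). For the change from 0 to 36 h the medians were -0.39 as deposited and 0.05 relative to the median, with none called and 0 at an unadjusted p under 0.05 on either scale. Of all tested genes 0.504% were called as deposited and 0.0174% relative to the median, and 1.91% and 1.89% had an unadjusted p under 0.05. The interaction and the difference at 96 h share the libraries of that time.

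The size of the difference at 96 h depended on which libraries were compared. The median relative level of the 44 genes was 0.29 in the first and -0.11 in the second wild-type library, and 0.43 in the first and 0.76 in the second HMGN1-OE library. The first libraries of the genotypes differed by a median of 0.14 and the second by 0.91, and the crossed pairs by 0.48 and 0.50. As deposited the first HMGN1-OE library was lower than the first wild-type library, with a median difference of -0.10 and 5 of 44 genes higher, and the other 3 pairs differed by 0.57, 1.21 and 1.95. Without the first wild-type library at 96 h, 4 of the 44 genes were called higher in HMGN1-OE cells as deposited and 21 relative to the median, in a fit that takes the remaining wild-type library to vary like the other groups. In that fit 0.799% of all tested genes were called higher as deposited and 7.76% relative to the median. The summed FPKM of the 8 progenitor markers had the order of libraries of the centred median, with 693 and 124 FPKM in wild-type and 810.2 and 2336 FPKM in HMGN1-OE cells at 96 h, or 0.154, 0.0542, 0.200 and 0.418% of the summed FPKM. Of these markers Mpo, a granule enzyme of promyelocytes, read 116 and 13.5 FPKM in wild-type and 114 and 406 in HMGN1-OE cells, while Kit read 12.3 and 5.23 against 9.58 and 8.85 and Flt3 was at most 0.256 FPKM. The 44 genes held 0.151 and 0.0960% of the summed FPKM in wild-type and 0.151 and 0.204% in HMGN1-OE cells. Elane, Prtn3 and Ctsg, also granule enzymes, were higher in both HMGN1-OE libraries and 4 of the 8 overlapped. Cd34, the remaining progenitor marker, ran the other way, with 6.18 and 4.99 FPKM in wild-type and 2.59 and 2.06 in HMGN1-OE cells. So did the 8 eosinophil, basophil or mast cell markers, which held 0.569 and 0.545% of the summed FPKM in wild-type and 0.0759 and 0.168% in HMGN1-OE cells at 96 h. Prg2, an eosinophil granule protein and the most abundant of these at that time, read 1970.3 and 933 FPKM against 186 and 472. Of these 8, 4 were lower in both HMGN1-OE libraries and 4 overlapped. The 12 neutrophil maturation markers held 22.9 and 30.5% in wild-type against 31.4 and 32.3% in HMGN1-OE libraries. Of these 12, Mmp8, Mmp9 and Cxcr2 were lower in both HMGN1-OE libraries, with 33.4 and 60.4 against 15.3 and 12.5 FPKM for Mmp8, 9.25 and 21.7 against 3.80 and 1.75 for Mmp9 and 17.5 and 8.32 against 5.96 and 5.68 for Cxcr2. S100a9, with its outlying wild-type value, was higher in both and the other 8 overlapped. At much lower shares, the monocyte or macrophage markers held 0.0194 and 0.0409% in wild-type against 0.0164 and 0.0148% in HMGN1-OE libraries. The erythroid or megakaryocyte markers held 0.00379 and 0.00424% against 0.000681 and 0.00135%. In each of these lists 6 of 8 genes overlapped. T or NK cell markers had 0.000349 and 0.000251% against 0.000187 and 0.000211%, and the shares of B cell markers overlapped. The part of these marker lists in the difference was not tested.

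**Figure D4:**
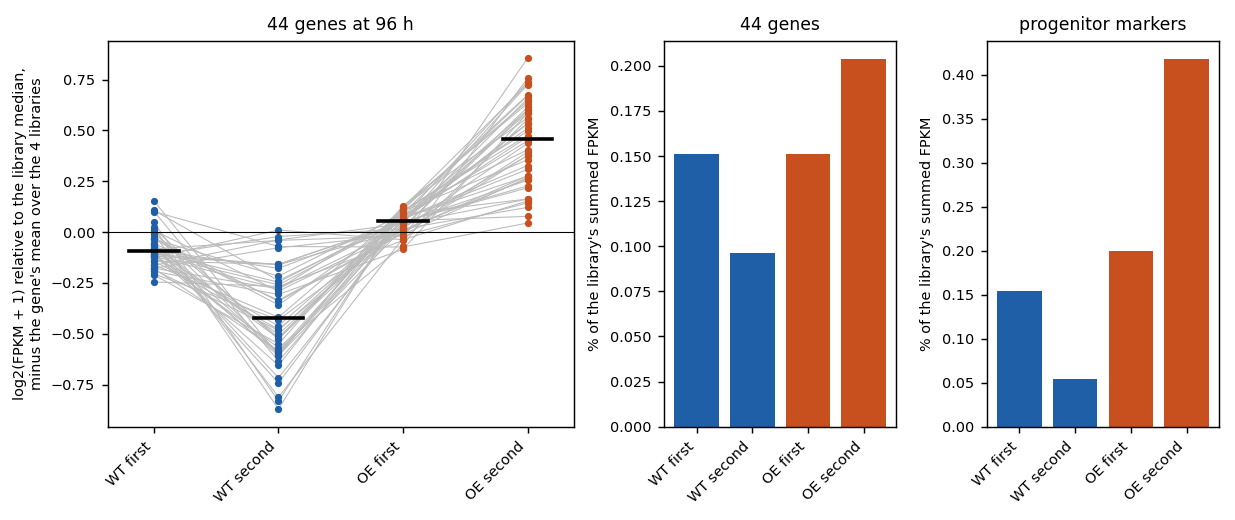
The 4 libraries at 96 h, 2 wild-type (blue) and 2 HMGN1-OE (orange, marked OE). Left, log2(FPKM + 1) relative to the library median, minus the mean of the gene over the 4 libraries (points, joined by gene). This panel draws the 44 genes together with Myc and Hmgn1, which are not among them, though its title gives only the 44. Thick lines are medians over all genes drawn. Middle and right, the share of summed FPKM held by the 44 genes and by the 8 progenitor markers. The second wild-type library is lowest and the second HMGN1-OE library highest in all 3 panels, with 0.0960 against 0.204% in the middle and 0.0542 against 0.418% on the right.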

How the data were processed

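Polyadenylated RNA of WT and HMGN1-OE progenitors at 0, 36 and 96 h was sequenced, with 2 libraries per group. The deposited values are FPKM. The authors added ERCC spike-in RNAs per counted number of cells and normalized the values to them by loess. The study's methods name Bowtie with RPKM values, whereas the submitters' processing notes name HISAT, Cufflinks 2.0.0 and mm9, and which of them made the table is not settled by the file. Column names give genotype, time and a digit that is not the replicate number of the labels, so each column was assigned to its group only. The medians of the 30 ERCC RNAs above 1 FPKM deviated by -0.03 to 0.04 (log2) between libraries.

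Of 23309 genes, 92 ERCC rows apart, the 11516 that reached 1 FPKM in 2 or more of the 12 libraries were tested on log2(FPKM + 1), so fold changes of low genes are understated. Limma 3.58.1 (lmFit, eBayes with trend) in R 4.3.3 was fitted to 6 group means, two-sided, with Benjamini-Hochberg adjustment over all tested genes and a threshold of 0.05. It was fitted to the values as deposited and after each library was centred on its median over the tested genes. As deposited, the estimated prior degrees of freedom were infinite, so a gene's own spread does not enter its p. On the centred values they were 2.87. Errors are standard errors from limma. The fit was also run on simulated data with known changes, and no result here rests on that run. In it, genes varied independently and no shift was shared by a whole library. It could therefore not show how the fit to the values as deposited handles such shifts. Values in every library are given, in each role group, for the gene with the highest mean FPKM and those with the largest and smallest relative change from 0 to 96 h in wild-type cells, and for any gene called between genotypes or against the common direction, of which there were none. Others are given by range and count, apart from those of extreme value or of a shared complex, chosen after their values were seen. The genes and lists were chosen with earlier results of these data known. Promoters came from RefSeq GRCm38.p6 and snoRNA genes from GENCODE vM21, and no coordinates were carried over to mm9.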

Additional observations from a re-analysis of the deposited data

How the results depend on the processing

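Of 317 alternatives of the counts of called genes, 315 left the count within 1.5 times its value, over other pseudocounts, filters, variance models, quantile normalization and leaving out single libraries. The exceptions were both at 96 h between genotypes and both without the first wild-type library: over the fits that leave out 1 library the count of the 44 genes called ran from 0 to 4 as deposited and from 0 to 21 relative to the library median. Of 1056 alternatives of single genes from 0 to 96 h, 1052 stayed lower and called, 4 lost the call and 0 reversed; all 4 were Utp3 in HMGN1-OE cells without 1 library, with changes between -0.28 and -0.38. Centring on genes with a mean of at least 20 FPKM, chosen after seeing the data, gave medians of -1.60 for wild type and -1.46 for HMGN1-OE. Centring without the filter gave -3.47 and -2.75, and by its construction centres mostly on genes near the lowest values. No paired analysis was possible because the columns carry no replicate numbers of the labels. With 2 libraries per group and no read counts, neither counting error nor small differences between genotypes can be assessed.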

Other observations

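A few genes listed beside the 44 did not fall from 0 to 96 h relative to the library median, and they are named here after their values were seen. Among the 7 other RNA polymerase I genes, Znrd1, a small subunit of the enzyme also called Polr1h, changed by 0.09 ± 0.17 in wild-type cells and 0.23 ± 0.17 in HMGN1-OE cells (limma, adjusted p = 0.651 and 0.243), and Ttf1, the termination factor of RNA polymerase I, by 0.25 ± 0.11 and 0.10 ± 0.11 (adjusted p = 0.0649 and 0.454). Polr1d, a subunit shared with RNA polymerase III, fell by 1.29 and 0.90 on the log2 scale (adjusted p = 3.38e-05 and 0.000365). Pop4, a protein of RNase MRP and RNase P, changed by -0.02 ± 0.13 and 0.21 ± 0.13 (adjusted p = 0.895 and 0.187). Rpp25, of the same particles, was called higher in wild-type cells, by 1.07 ± 0.35 (adjusted p = 0.0217), and changed by 0.35 ± 0.35 in HMGN1-OE cells (adjusted p = 0.408), with a mean of only 0.897 FPKM over the 12 libraries. Of the 79 ribosomal protein genes, Fau had the smallest change in wild-type cells, -0.23 ± 0.18 (adjusted p = 0.266).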
